A study of Mus musculus with 28 samples.

Results

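Zinc and iron transport and storage was followed through 39 mouse genes, of 55011 gene symbols in the count table. The genes were listed by function, by a rule that takes no measured value, and all 39 were in the table. They were 14 ZIP importers (the Slc39a genes), which carry zinc into the cytosol, 10 ZnT exporters (the Slc30a genes), which carry it out of the cytosol, 4 metallothioneins, and 11 genes of iron uptake, export and storage.

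In the small intestine, dietary zinc is taken up at the brush border by the importer ZIP4, the product of Slc39a4. Dietary iron is reduced at the same surface by Cybrd1, imported by Slc11a2 and stored in ferritin (Fth1 and Ftl1), or passed to the blood through the exporter ferroportin (Slc40a1) together with the ferroxidase hephaestin (Heph). Metallothioneins are small cysteine-rich proteins that bind zinc and copper, and their transcription is known to respond to metals and to stress.

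Bulk RNA sequencing was done on medullary thymic epithelial cells (mTECs) of C57BL/6 mice, the stromal cells of the thymus that transcribe many genes of peripheral tissues. From WT thymus, cells of an entero-hepato gate (n = 3) and mTECs outside that gate (n = 3) were sorted; the title of the series speaks of gut and liver programs. The other mice all carried Foxn1cre(+/-), a Cre recombinase active in thymic epithelium, with alleles of Hnf4a and Hnf4g, which encode nuclear receptors of gut and liver. In mTEChi, the double mutant Hnf4a(fl/fl)Hnf4g(-/-) (n = 4) was set against the control Hnf4a(fl/+)Hnf4g(+/-) (n = 4). In post-Aire mTEClo, the double mutant (n = 4), the Hnf4a-removed genotype Hnf4a(fl/fl)Hnf4g(+/-) (n = 3) and the Hnf4g-removed genotype Hnf4a(fl/+)Hnf4g(-/-) (n = 3) were set against the same control genotype (n = 4). The controls thus carried the Cre and 1 intact allele of each Hnf4 gene, and the Hnf4g allele, by its name, did not need the Cre. Each library was made from 1000 sorted cells. The labels give no ages or sexes. Library titles number the replicates of a group Thy#1 onward, which points to different thymi, though the labels do not describe the animals. The p-values describe how these libraries vary, and part of that variation may be technical.

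The libraries held between 4330120 and 8342583 counts in total. The epithelial gene Epcam was present in all groups (mean 744 to 1987 CPM, reads scaled to library totals adjusted by TMM), and Aire averaged 1862 CPM in double-mutant and 1674 CPM in control mTEChi. In mTEClo it averaged 192 CPM in double mutants and 403 CPM in controls. Of the 4 mTEClo libraries numbered 1, 3 had the lowest sum of mTEC and epithelial markers in their group (4856 CPM in controls, 3418 CPM in Hnf4g-removed and 4230 CPM in Hnf4a-removed cells), and calls in mTEClo that change without these 4 libraries are given beside the results. Hnf4g had a mean of 7.54 CPM in double-mutant against 19.7 CPM in control mTEChi and of 5.23 CPM in double-mutant against 12.7 CPM in control mTEClo (adjusted p = 0.0862 and 0.0633). Hnf4a had 4.08 CPM in double-mutant against 4.44 CPM in control mTEChi, and 3.15 CPM in double-mutant against 4.63 CPM in control mTEClo. The files do not say which exons were removed, so these counts do not check the genotypes.

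Per kilobase of exon, the ferritin genes were the most abundant members in nearly all groups. Ftl1, the ferritin light chain, was first in every group, with mean levels of 957 CPM per kb in the entero-hepato gate and 453 CPM per kb in double-mutant mTEClo at the ends of its range. The heavy chain Fth1 came second in all groups but double-mutant mTEChi, where Mt1 (329 CPM per kb) and Mt2 (293 CPM per kb) stood above it (211 CPM per kb). Slc39a4 came next after the ferritin genes in the entero-hepato gate, at 249 CPM per kb, and Slc39a1, a broadly expressed importer, led the ZIP genes in the other groups (47.0 to 87.8 CPM per kb). The length used was that of all annotated exons joined (3469 bases for Fth1, 1340 for Ftl1 and 1246 for Mt1), which can exceed that of the main transcript. The order of these genes thus depends on the annotation. Without division by length, Fth1 was above Ftl1 in the gate (2046 to 2152 against 1180 to 1343 CPM). In control mTEChi it was below (559 to 689 against 885 to 908 CPM). Reads of ferritin pseudogenes could be counted with Fth1 and Ftl1 or lost from them, so these levels are uncertain. The exons of 18 of the 39 members lie over or under exons of another gene, Heph (with Hsf3), Slc39a6 (with Elp2) and Slc39a9 (with Erh) among them, and without strand such reads cannot be told apart.

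**Figure D1:**
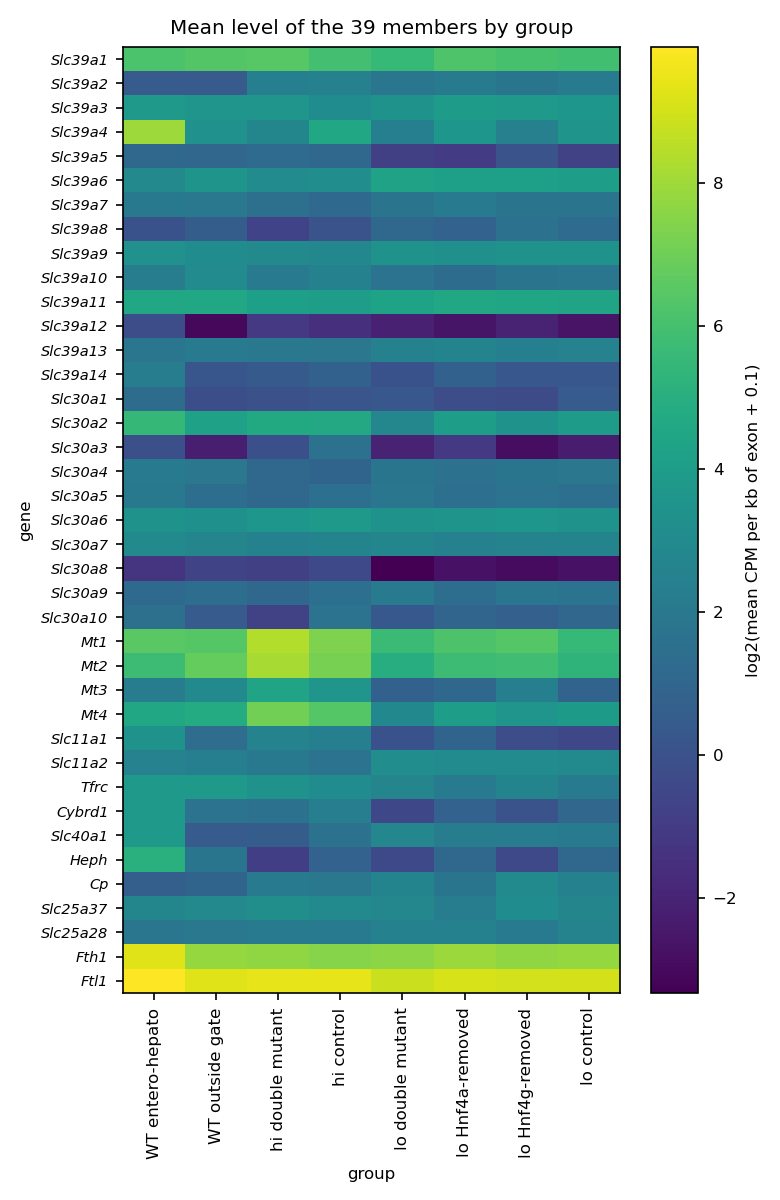
Mean level of each of the 39 genes (rows) in the 8 groups (columns), as log2 of mean CPM per kb of exon with 0.1 added; brighter cells are higher. Slc39a4 and Heph stand out in the entero-hepato column, and Mt1, Mt2, Mt3 and Mt4 in the mTEChi columns, brightest in double mutants.

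Members at the bottom of the range were Slc39a12, an importer known mainly from brain, the synaptic vesicle transporter Slc30a3 and the beta cell transporter Slc30a8. Slc30a8 had 9 reads in all in entero-hepato and 16 reads in outside libraries, and in mTEClo 0 reads over the 4 double-mutant libraries, which a true total of up to 3 reads could give, against 3 reads over the 4 control libraries. By the main settings Slc39a12 and Slc30a8 were too low to test anywhere, and Slc30a3 was tested only in comparisons with mTEChi libraries. Between the WT gates, Slc39a12 had 36 reads in entero-hepato and 1 read in outside libraries, and Slc30a3 had 38 and 5 reads. Both were called there with no low-count filter (Slc39a12 adjusted p = 0.000851). Slc39a12 was also called without outside replicate 1, 2 or 3, and Slc30a3 without outside replicate 3. The 4 metallothionein genes lie side by side on chromosome 8 (GRCm38), from Mt4 (94137197 to 94139031) through Mt3 (94152607 to 94154146) and Mt2 (94172664 to 94173568) to Mt1 (94179082 to 94180327), all on the plus strand.

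Sequence before the RefSeq start is shown for Mt1 and Mt2, which rose together in double-mutant mTEChi, and for Slc30a2, the exporter that fell in double-mutant mTEClo. The 3 windows are the 250 bases before the RefSeq start, 5′ to 3′ on the plus strand of GRCm38.p6 (RefSeq). They lie at chr8:94178839-94179088 for Mt1, chr8:94172368-94172617 for Mt2 and chr4:134343216-134343465 for Slc30a2. The Slc30a2 window lies inside the GENCODE gene body, so it is not upstream of that gene model and can hold transcribed sequence. Capitals mark the core of the metal response element, TGCACNC or TGCGCNC, searched on both strands.
Mt1: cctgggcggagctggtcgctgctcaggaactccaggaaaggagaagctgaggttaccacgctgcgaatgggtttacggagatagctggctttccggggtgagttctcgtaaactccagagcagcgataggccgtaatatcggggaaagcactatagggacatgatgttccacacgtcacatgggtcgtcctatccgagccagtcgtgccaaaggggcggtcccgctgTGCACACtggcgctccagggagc
Mt2: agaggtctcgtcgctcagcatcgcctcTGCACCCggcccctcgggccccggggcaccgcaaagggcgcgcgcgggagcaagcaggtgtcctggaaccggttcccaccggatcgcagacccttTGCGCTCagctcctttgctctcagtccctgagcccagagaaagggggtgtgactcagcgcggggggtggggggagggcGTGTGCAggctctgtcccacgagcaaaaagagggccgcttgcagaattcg
Slc30a2: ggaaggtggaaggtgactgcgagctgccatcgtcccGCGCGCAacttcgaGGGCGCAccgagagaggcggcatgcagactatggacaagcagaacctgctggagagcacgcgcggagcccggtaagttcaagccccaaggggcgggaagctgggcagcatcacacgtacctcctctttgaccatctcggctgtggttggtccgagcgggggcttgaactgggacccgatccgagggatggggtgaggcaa
Mt1 held 1 core, Mt2 held 3 and Slc30a2 held 2. In windows of 300 bases, which run past the RefSeq start, Mt1 held 3 cores and Mt2 held 4. The counts thus depend on where the start is annotated, and the number of cores in Mt1 and Mt2 cannot be compared from the 250 bases alone. Of all 32817 RefSeq promoter windows of 250 bases, 21.4% held at least 1 core and 5.18% at least 2. Windows were given for 31 of the 39 members, 39 windows in all, of which 15 held a core and 5 held 2 or more. None was given for Slc39a4, Heph, Slc40a1, Slc39a6, Slc39a14, Slc30a8, Slc11a2 or Slc25a37, so these genes were searched for neither motif. The letters CAAAGNNCA, searched on both strands for the HNF4 motif, were in 1 of the 39 windows (Slc30a3) and in 5.49% of all windows, and that 1 match overlapped no core. These matches describe the sequence and not the use of a site.

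The comparison of the WT gates asked which of these genes differ in mTECs sorted as entero-hepato. The intestinal zinc importer Slc39a4 was 23.7-fold higher there, and a set of intestinal iron genes, Heph, Slc40a1 and Cybrd1, was 4.44-fold to 10.6-fold higher, with ferritin heavy chain 2.69-fold higher. A gene was called at an adjusted p under 0.05 over all genes tested. In all, 11 of the 36 members tested were higher and 3 lower, where 44.5% of all genes were called (22.7% higher and 21.8% lower). The median log2 difference was 0.14 over the members and -0.05 over all genes. With plain library totals in place of TMM, all genes shifted by -0.37 on the log2 scale and the members split into 10 higher and 9 lower. All genes then split into 2403 higher and 6273 lower, against 3822 higher and 3657 lower with TMM.

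Among the importers, Slc39a4 (chromosome 15, 76612383 to 76617384, minus strand) had 942, 630.5 and 752 CPM in the entero-hepato libraries, against 29.7, 30.7 and 36.6 CPM in those outside the gate. Every entero-hepato library was far above every outside one (log2 difference 4.57 ± 0.18 SE, adjusted p = 9.28e-07). Slc39a14, the ZIP14 importer of zinc and of iron not bound to transferrin, had 51.9, 42.7 and 48.3 CPM in the gate, against 9.75, 7.35 and 16.3 CPM outside it. The groups stood apart (2.08 ± 0.27 SE, adjusted p = 0.000305). The importers Slc39a10 (28.6 against 49.4 CPM) and Slc39a6 (30.5 against 46.5 CPM), which are close relatives, were lower in the gate, with adjusted p = 0.0131 and 0.0224. The Slc39a10 call was lost without outside replicate 2 (adjusted p = 0.0540), and the Slc39a6 call without entero-hepato replicate 1 or 2 or outside replicate 1 or 3 (adjusted p up to 0.0975). The other 9 ZIP genes tested were not called, with 1 (Slc39a9) at an unadjusted p under 0.05. Slc39a1 averaged 171 against 192 CPM (adjusted p = 0.165), and Slc39a5, the other ZIP gene known from gut epithelium, 4.61 against 4.36 CPM (adjusted p = 0.930). The sum over the 14 ZIP genes was 1341 ± 179 CPM in the gate and 593 ± 24.8 CPM outside it (SD, n = 3 each). Slc39a4 alone made nearly all of the difference between these sums.

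Slc30a2, which loads zinc into vesicles, was the most abundant of the exporters in the gate, per kilobase. It had 149, 162 and 160.0 CPM in entero-hepato libraries, against 73.3, 60.0 and 66.4 CPM outside. No values overlapped (1.22 ± 0.10 SE, adjusted p = 3.12e-05). The plasma membrane exporter Slc30a1, itself known to be induced by zinc, averaged 12.7 ± 2.58 against 4.25 ± 0.499 CPM (1.56 ± 0.32 SE, adjusted p = 0.00419). Slc30a5, of the secretory pathway, averaged 28.7 against 19.6 CPM (0.54 ± 0.16 SE, adjusted p = 0.0229), and lost its call in 6 of 11 alternatives, namely plain totals, no low-count filter, the replicate block, and leaving out entero-hepato replicate 2 or outside replicate 1 or 2 (adjusted p up to 0.399). The other 5 exporters tested were not called by edgeR. The manganese and zinc exporter Slc30a10 averaged 16.6 CPM in the gate and 7.48 CPM outside it, in groups that did not overlap (adjusted p = 0.0764 by edgeR), and DESeq2 called it higher (adjusted p = 0.0404).

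Of the 4 metallothioneins, edgeR called 1 (Mt2), lower in the gate, and Mt3 was called too with plain totals. Mt1 had 112, 106 and 126 CPM in the gate, against 89.6, 101 and 124 CPM outside it (adjusted p = 0.508). These values overlapped. Mt2 had 26.3, 26.1 and 42.0 CPM in the gate, against 49.8, 59.8 and 83.1 CPM outside it. Every entero-hepato library was below every outside library (-1.04 ± 0.24 SE, adjusted p = 0.00810). Mt3 averaged 4.97 against 8.54 CPM and Mt4 9.59 against 11.2 CPM, and neither was called (adjusted p = 0.140 and 0.715).

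Of the 11 iron genes 6 were higher in the gate by edgeR, and DESeq2 also called 6 higher. Hephaestin, the ferroxidase that works with ferroportin (Heph, chromosome X, 96455359 to 96574485, plus strand), had 291, 238 and 243 CPM in the gate, against 29.7, 24.1 and 23.9 CPM outside it. Ferroportin (Slc40a1, chromosome 1, 45908068 to 45926523, minus strand) had 112, 142 and 117 CPM in the gate, against 8.30, 14.5 and 11.9 CPM outside it. Both were separated by a wide gap (Heph 3.30 ± 0.14 SE, adjusted p = 1.11e-06; Slc40a1 3.40 ± 0.20 SE, adjusted p = 4.89e-06). The ferric reductase Cybrd1 (chromosome 2, 71117923 to 71142926, plus strand) had 96.7, 65.5 and 67.8 CPM in the gate, against 17.0, 14.3 and 19.9 CPM outside it, again with no overlap (2.15 ± 0.20 SE, adjusted p = 5.05e-05).

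Fth1 (chromosome 19, 9980598 to 9985098, plus strand) had 2152, 2132 and 2046 CPM in the gate, against 835, 678 and 821 CPM outside it. Ftl1 (chromosome 7, 45457944 to 45459884, minus strand) had 1324, 1180.1 and 1343 CPM in the gate, against 783, 782 and 856 CPM outside it. Neither ferritin gene overlapped between the groups (Fth1 1.43 ± 0.09 SE, adjusted p = 7.31e-06; Ftl1 0.66 ± 0.09 SE, adjusted p = 0.000358). The difference of Ftl1 was 0.29 with plain totals. Slc11a1, the metal transporter of phagocyte endosomes, had 51.0, 34.9 and 30.1 CPM in the gate, against 10.4, 6.93 and 10.9 CPM outside it (2.02 ± 0.27 SE, adjusted p = 0.000360). Slc11a2, the intestinal importer of ferrous iron, was not called, with 40.4, 31.3 and 38.9 CPM in the gate, against 37.1, 28.1 and 31.2 CPM outside it (adjusted p = 0.409). Neither were the transferrin receptor Tfrc (85.9 against 88.6 CPM, adjusted p = 0.753), the plasma ferroxidase Cp (14.6 against 17.4 CPM, adjusted p = 0.569), or the mitochondrial iron importers Slc25a37 and Slc25a28.

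**Figure D2:**
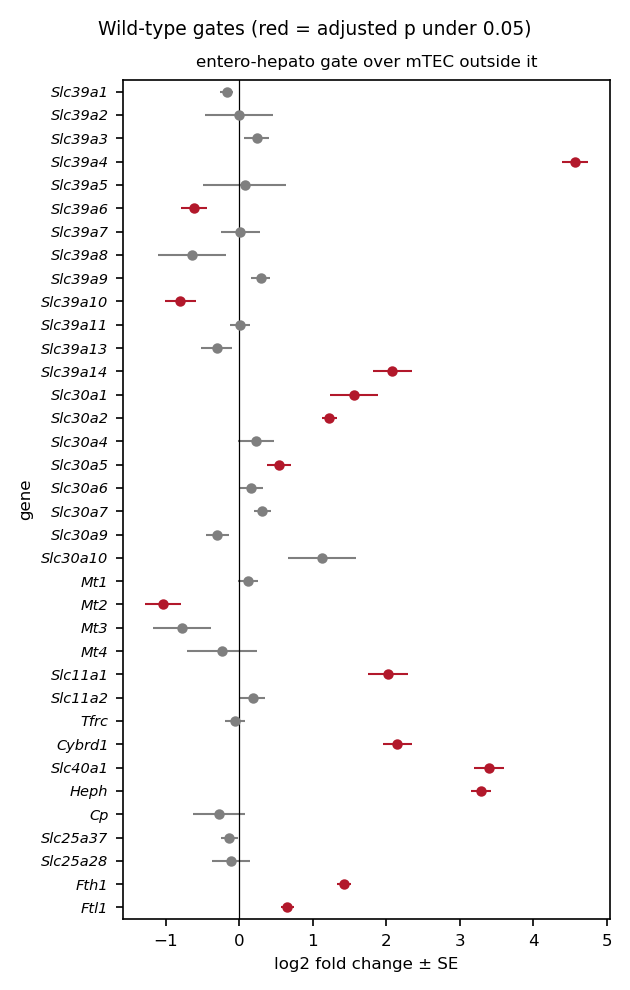
Log2 fold change with SE (x axis) of the 36 tested members (y axis) between the entero-hepato gate and mTECs outside it in WT thymus, n = 3 libraries each; red marks an adjusted p under 0.05. The zinc importer Slc39a4 lies at 4.57, Slc40a1 and Heph at 3.40 and 3.30, and Mt2 at -1.04.

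Of 50 other listed genes of zinc and iron handling in the table, 45 were tested, 19 were higher and 6 lower. The 4 with the smallest p were all higher in the gate. Alas1, the first enzyme of heme synthesis, averaged 971 ± 63.7 against 189 ± 23.7 CPM. Hamp, the precursor of the iron hormone hepcidin, averaged 84.2 ± 18.4 against 10.1 ± 1.25 CPM; reads could be split between it and its near copy Hamp2. The heme oxygenase Hmox1 averaged 175 ± 16.4 against 54.9 ± 12.4 CPM, and Ncoa4, which delivers ferritin for breakdown, 98.7 ± 9.15 against 45.4 ± 1.42 CPM. Their adjusted p ran from 2.40e-06 to 9.12e-05.

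Markers of other cells moved with these groups. The 8 enterocyte genes summed to 11609 to 17623 CPM in the gate, against 346 to 442 CPM outside it, and all 8 were called higher. The 14 macrophage and myeloid genes summed to 1721 to 2109 CPM in the gate, against 940 to 1094 CPM outside it. Of these 6 were called higher and none was at 0; Adgre1 averaged 13.8 against 29.9 CPM and C1qa 16.6 against 12.3 CPM. The 8 erythroid genes summed to 172 to 249 CPM, against 21.5 to 36.3 CPM, with 5 of 6 tested called higher, among them Hbb-bs. The 5 hepatocyte genes summed to 1244 to 2571 CPM in the gate, against 69.5 to 79.1 CPM outside it, with 2 of 4 tested called higher. The 6 microfold genes summed to 2747 to 3194 CPM in the gate, against 800.5 to 899 CPM outside it, and all 6 were called higher. The 5 endothelial genes summed to 21.1 to 102 CPM, against 9.13 to 11.9 CPM outside, with 3 of 4 tested called higher, and the 6 tuft genes to 107 to 245 CPM, against 1315 to 1926 CPM outside, with 5 called lower. Macrophages and red cell precursors are also known to use ferroportin, ferritin, Slc11a1 and Hmox1, and the part of such cells in these results was not tested. Proliferation genes summed to 69.8 to 85.9 CPM in the gate, against 663 to 859 CPM outside it. In bulk libraries, fewer cells of a type and less RNA per cell cannot be told apart.

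In mTEChi, loss of both Hnf4 genes came with lower Slc39a4 and higher Mt1 and Mt2. Slc39a4 was 3.65-fold lower in double mutants, while Mt1 was 2.02-fold and Mt2 2.01-fold higher. These 3 were the called ones of 37 members tested, where 0.635% of all genes were called (0.597% lower and 0.038% higher). The 7 genes called higher in this comparison thus included Mt1 and Mt2. The median log2 difference was 0.05 over the members and 0.01 over all genes, a difference of the medians that was not tested.

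Slc39a4 had 17.2, 26.9, 22.1 and 14.6 CPM in double-mutant mTEChi, against 53.7, 63.8, 78.6 and 98.2 CPM in controls. Every double-mutant library was below every control library (-1.87 ± 0.23 SE, adjusted p = 0.00196). No other ZIP gene was called, with 1 (Slc39a3) at an unadjusted p under 0.05, and the summed level of all 14 was 537 ± 80.2 CPM in double mutants and 525 ± 58.7 CPM in controls (SD, n = 4 each). Slc39a1, the most abundant of them, ranged from 110.3 to 282 CPM in double mutants and from 113 to 204 CPM in controls (adjusted p = 0.504).

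Mt1 had 451, 470.2, 357 and 359 CPM in double-mutant mTEChi, against 213, 191, 190.1 and 217 CPM in controls. Mt2 had 211, 198, 133 and 149 CPM in double mutants, against 83.2, 74.2, 93.3 and 93.1 CPM in controls. For both genes all double-mutant libraries were above all control libraries (Mt1 1.02 ± 0.12 SE, adjusted p = 0.00148; Mt2 1.00 ± 0.16 SE, adjusted p = 0.00923). Mt3, the metallothionein known from brain, had 20.0, 28.4, 20.1 and 22.4 CPM in double mutants, against 11.2, 10.1, 15.6 and 14.1 CPM in controls. The groups stood apart, but the gene was not called (0.83 ± 0.22 SE, adjusted p = 0.155), while DESeq2 called it. Mt4, known from stratified epithelium, had 39.9, 48.9, 63.9 and 60.7 CPM in double mutants, against 33.3, 28.8, 24.5 and 48.6 CPM in controls, and the groups overlapped (adjusted p = 0.276). Summed over the 4 genes the level was 658 ± 88.0 CPM in double mutants and 335 ± 29.1 CPM in controls (SD, n = 4 each). An exon of the gene model Gm45774 lies over Mt2, and without strand in the library kit the reads of the pair cannot be told apart.

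**Figure D3:**
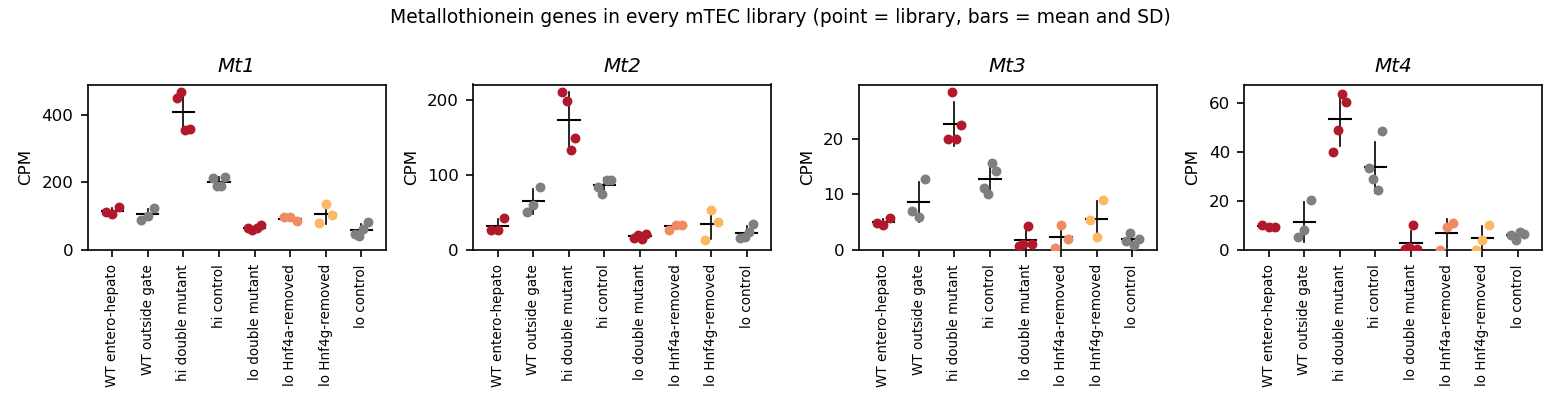
CPM (y axis, from 0) of the 4 metallothionein genes in every library by group; points are libraries, horizontal bars means and vertical bars SD. The 4 double-mutant mTEChi libraries lie at 357 to 470.2 CPM for Mt1, above the 190.1 to 217 CPM of control mTEChi; the mTEClo genotypes lie lower.

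Hephaestin had 5.22, 3.96, 3.36 and 1.12 CPM in double-mutant mTEChi, against 8.64, 11.4, 14.7 and 16.3 CPM in controls. Slc30a10 had 1.08, 1.98, 7.35 and 1.12 CPM in double mutants, against 8.64, 13.0, 27.7 and 23.8 CPM in controls. Neither gene overlapped between the groups and neither was called (Heph -1.91 ± 0.42 SE, adjusted p = 0.0800; Slc30a10 -2.64 ± 0.59 SE, adjusted p = 0.0843), but DESeq2 called both. Slc30a10 was also called lower with the replicate block (adjusted p = 0.0219), without double-mutant replicate 3 (adjusted p = 0.00466) and with no low-count filter, and Heph with no low-count filter. Ferroportin averaged 12.3 ± 8.20 CPM in double mutants and 27.6 ± 9.89 CPM in controls (adjusted p = 0.342), and Cybrd1 16.1 ± 6.80 CPM in double mutants and 26.7 ± 4.02 CPM in controls (adjusted p = 0.416). The exporter Slc30a2 averaged 91.6 ± 3.83 CPM in double mutants and 90.6 ± 9.42 CPM in controls, with an interval of the log2 difference of -0.21 to 0.24. The ferritin genes were not called either, with Ftl1 at 898 ± 122 CPM in double mutants and 897 ± 9.81 CPM in controls.

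Of the other listed zinc and iron genes, 48 were tested in mTEChi and 2 were called, both lower. Hmox1 averaged 49.6 ± 15.9 CPM in double mutants and 144 ± 10.04 CPM in controls (-1.53 ± 0.21 SE, adjusted p = 0.00346). Trf, which encodes the iron carrier transferrin, averaged 240.0 ± 67.6 CPM in double mutants and 505 ± 34.5 CPM in controls (-1.07 ± 0.17 SE, adjusted p = 0.0108). Enterocyte genes summed to 354 to 455 CPM in double-mutant mTEChi, against 975 to 1339 CPM in controls, with 7 of 8 called lower. The microfold genes summed to 610 to 1146 CPM, against 1105 to 1916 CPM, with 0 of 6 called. Dissociation stress genes, given because metallothioneins respond to stress, summed to 1940 to 2909 CPM, against 1881 to 2722 CPM, with 0 of 12 called. For the myeloid genes the sums were 2204 to 2837 CPM, against 2506 to 2913 CPM, with 0 of 14 called. The part of a changed cell makeup in these results was not tested.

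In mTEClo, loss of both genes came with lower Slc30a2 and higher Slc40a1. The exporter Slc30a2 was 2.24-fold lower in double mutants and ferroportin 1.67-fold higher, and these were the 2 members called of 36 tested, where 0.74% of all genes were called (0.581% lower and 0.16% higher). Slc30a2 (chromosome 4, 134343181 to 134354484, plus strand) had 22.0, 20.4, 23.8 and 30.5 CPM in double mutants, against 41.2, 61.5, 61.4 and 52.2 CPM in controls. Every double-mutant library was below every control library (-1.16 ± 0.24 SE, adjusted p = 0.0346). Slc40a1 had 64.6, 65.0, 61.3 and 58.0 CPM in double mutants, against 45.3, 41.5, 26.6 and 35.6 CPM in controls. The double-mutant libraries were close together and above all controls (0.74 ± 0.16 SE, adjusted p = 0.0466). Both calls depended on most of the 8 libraries. Slc30a2 was not called without replicates 2, 3 or 4 of the controls, nor without replicates 1, 2 or 3 of the double mutants (adjusted p up to 0.111), and Slc40a1 not without any library except control replicate 1, nor with plain totals (adjusted p up to 0.148).

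Several other members stood apart or nearly so without being called. The share of all genes that stood apart is not given, here or for the other comparisons. Standing apart thus says nothing particular about the members. Cybrd1 had 2.85, 4.85, 1.32 and 4.44 CPM in double-mutant mTEClo, against 6.82, 9.25, 9.35 and 17.1 CPM in controls. These did not overlap (-1.66 ± 0.41 SE, adjusted p = 0.0778), and DESeq2 called the gene lower. Slc39a4 had 14.5, 22.6, 11.0 and 16.7 CPM in double mutants, against 32.8, 38.7, 34.4 and 34.0 CPM in controls, also without overlap (-1.11 ± 0.37 SE, adjusted p = 0.198). Slc39a4 was called lower with the compared groups alone and with no low-count filter. Hephaestin had 1.49, 7.64, 2.91 and 8.14 CPM in double mutants, against 2.54, 17.3, 22.7 and 22.0 CPM in controls. Its control replicate 1, 1 of the 4 libraries numbered 1, lay among the double mutants (adjusted p = 0.212), and without those 4 libraries Heph was called lower.

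None of the 4 metallothioneins was called in double-mutant mTEClo by edgeR or DESeq2, and 0 had an unadjusted p under 0.05. Mt1 had 64.4, 59.5, 63.3 and 72.1 CPM in double mutants, against 47.1, 41.2, 61.0 and 83.7 CPM in controls. These overlapped, and the interval of the log2 difference was -0.23 to 0.53 (adjusted p = 0.832). The sum of the 4 genes was 87.3 ± 6.73 CPM in double mutants and 88.6 ± 27.6 CPM in controls (SD, n = 4 each). The ferritin genes averaged 674 ± 73.3 against 778 ± 95.8 CPM (Fth1, adjusted p = 0.445) and 607 ± 40.2 against 716 ± 66.4 CPM (Ftl1, adjusted p = 0.382). Of the 46 other zinc and iron genes tested, Hmox1 was called, at 26.2 ± 3.25 CPM in double mutants and 52.1 ± 12.7 CPM in controls (-0.99 ± 0.18 SE, adjusted p = 0.0174).

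Some marker sums moved in mTEClo too. Enterocyte genes summed to 228 to 305 CPM in double mutants, against 552 to 831 CPM in controls, with 7 of 8 called lower. Tuft genes summed to 7803 to 8594 CPM, against 5454 to 7252 CPM, with 2 of 6 called higher. The mTEC and epithelial list summed to 4006 to 4326 CPM, against 4856 to 7579 CPM, with 0 of 8 called. The microfold genes summed to 2682 to 3066 CPM, against 2821 to 3908 CPM, with 2 of 6 called lower. The myeloid genes summed to 500 to 810 CPM, against 704 to 1161 CPM, which overlapped, with 0 of 13 tested genes called. The part of these shifts in the results for Slc30a2 and Slc40a1 was not tested.

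**Figure D4:**
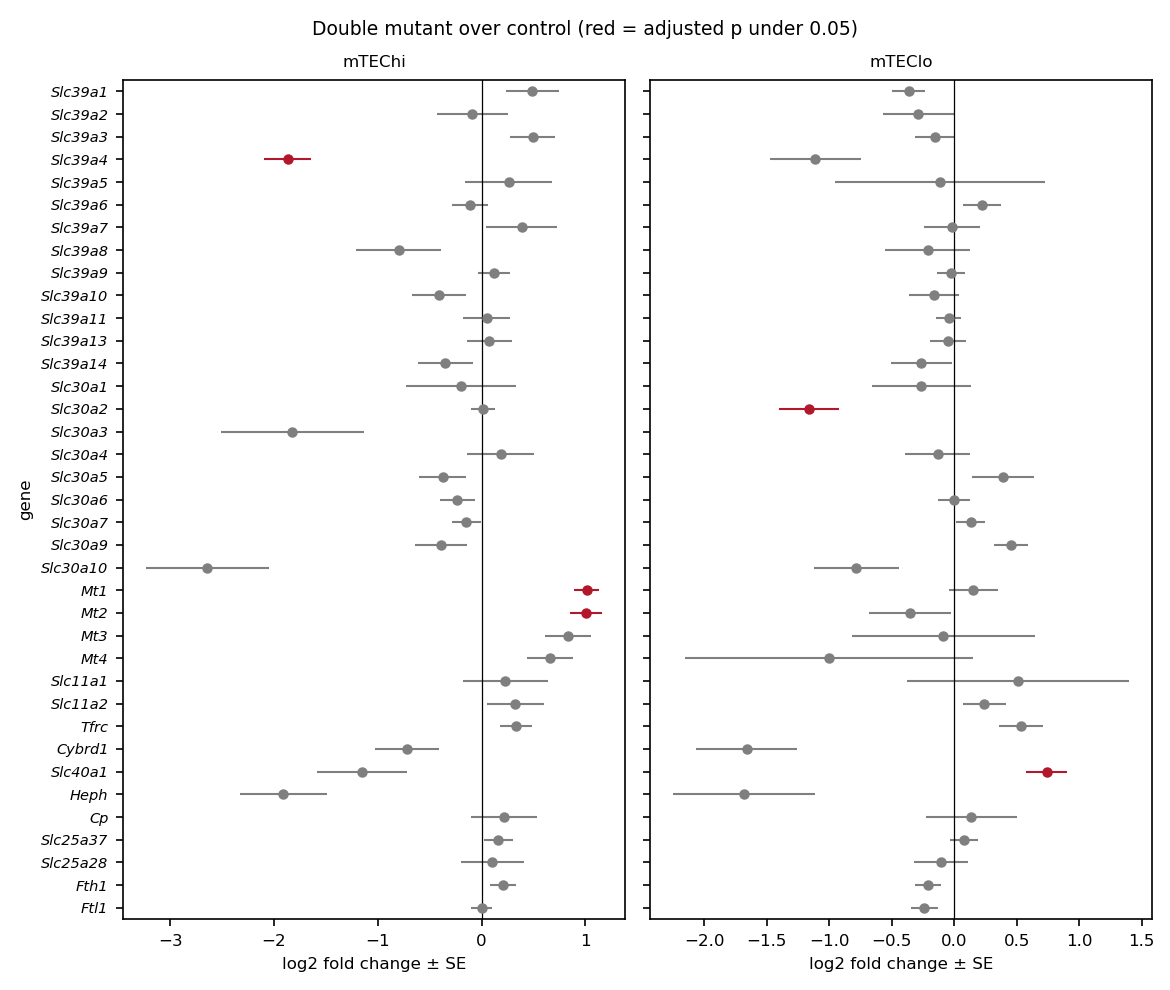
Log2 fold change with SE (x axis) of the tested members (y axis) between double mutants and controls in mTEChi (left) and mTEClo (right), n = 4 libraries each; red marks an adjusted p under 0.05, and the x axes differ in range. Mt1 and Mt2 lie at 1.02 and 1.00 and Slc39a4 at -1.87 in mTEChi; Slc30a2 lies at -1.16 and Slc40a1 at 0.74 in mTEClo.

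By the main settings, removal of a single Hnf4 gene gave no called member in mTEClo. For Hnf4a-removed cells 0 of 36 members were called by edgeR and by DESeq2, where edgeR called 0.00533% of all genes. An unadjusted p under 0.05 was held by 4 of the members and by 1130 of all 18775 genes tested. For Hnf4g-removed cells edgeR called 0 of 36 and DESeq2 called 1 (Mt1), where edgeR called 0.0959% of all genes. An unadjusted p under 0.05 was held by 6 of the members and by 1538 of all 18775 genes tested. Slc39a4 had 36.3, 14.1 and 63.6 CPM in Hnf4a-removed cells and 25.0, 14.8 and 9.15 CPM in Hnf4g-removed cells, beside the control values given above. The Hnf4a-removed libraries lay on either side of the controls, and the Hnf4g-removed libraries all lay below them (-1.11, adjusted p = 0.471). With no low-count filter, Slc39a4 (adjusted p = 0.000168) and Heph were called after Hnf4g removal. Slc30a2 had 46.9, 41.1 and 89.0 CPM in Hnf4a-removed and 27.2, 49.2 and 35.6 CPM in Hnf4g-removed cells, overlapping the controls in both.

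Mt1 had 96.3, 96.3 and 84.5 CPM in Hnf4a-removed cells and 79.4, 137 and 103 CPM in Hnf4g-removed cells, against 47.1, 41.2, 61.0 and 83.7 CPM in controls. The Hnf4a-removed libraries were all above the controls (0.65, adjusted p = 0.709), and 1 Hnf4g-removed library lay among them (0.87, adjusted p = 0.182). With no low-count filter Mt1 was called after removal of either gene. After Hnf4g removal it was also called by DESeq2 and without control replicate 4. The mitochondrial iron importer Slc25a37 had 27.9, 27.2 and 27.6 CPM in Hnf4a-removed and 53.7, 52.4 and 50.2 CPM in Hnf4g-removed cells, against 39.8, 35.0, 42.4 and 38.5 CPM in controls. The Hnf4a-removed libraries lay below all controls (-0.51, adjusted p = 0.706) and the Hnf4g-removed libraries above all of them (0.42, adjusted p = 0.272), and neither difference was called. Both comparisons share the 4 control libraries. Slc39a10 averaged 15.2 ± 1.04 CPM in Hnf4a-removed and 21.4 ± 5.61 CPM in control cells (adjusted p = 0.830). None of the 46 other zinc and iron genes tested was called by edgeR after removal of either gene, and DESeq2 called 0 (Hnf4a) and 2 (Hnf4g). An unadjusted p under 0.05 was held by 2 (Hnf4a) and 7 (Hnf4g) of them, and by 1130 and 1538 of all 18775 genes.

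The sorted subsets differed in many of these genes. In control thymus all 4 metallothioneins were higher in mTEChi than in post-Aire mTEClo, by 3.56-fold to 6.98-fold, together with the transferrin receptor Tfrc and the importer Slc39a4, while the iron importer Slc11a2 and 4 ZIP genes were lower. Of 37 members tested, 15 were higher and 6 lower in mTEChi, where 42.9% of all genes were called (22.4% higher and 20.5% lower). In double-mutant thymus 13 were higher and 8 lower, where 50.8% of all genes were called (27.7% higher and 23.1% lower). The 2 comparisons share no library, and 17 members were called in the same direction in both, 81.0% of the 21 called in each. Of all genes, 7122 were called in the same direction in both, 82.6% of those called in controls and 69.8% of those called in double mutants. The median log2 difference was 0.08 over the members and 0.04 over all genes in controls, and 0.16 and 0.06 in double mutants. The labels give no library batch, so the subset and any batch cannot be told apart.

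For Mt1 the mTEChi controls lay at 190.1 to 217 CPM, against 41.2 to 83.7 CPM in mTEClo controls (1.83 ± 0.17 SE, adjusted p = 1.93e-07). In double mutants the 4 mTEChi libraries lay at 357 to 470.2 CPM, against 59.5 to 72.1 CPM in mTEClo (2.69 ± 0.18 SE, adjusted p = 1.24e-09). The subset ranges were far apart in both genotypes. Mt2 averaged 85.9 ± 9.16 CPM in mTEChi and 22.7 ± 8.40 CPM in mTEClo controls (1.95 ± 0.21 SE, adjusted p = 1.16e-06), and 173 ± 37.5 CPM in mTEChi and 17.8 ± 2.93 CPM in mTEClo double mutants (3.31 ± 0.22 SE, adjusted p = 1.64e-09). Mt3 (12.8 against 1.86 CPM in controls) and Mt4 (33.8 against 5.80 CPM) were called in both genotypes.

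Among importers, Slc39a4 averaged 73.6 ± 19.3 CPM in mTEChi and 35.0 ± 2.59 CPM in mTEClo controls (1.11 ± 0.22 SE, adjusted p = 0.000649), and 20.2 CPM in mTEChi and 16.2 CPM in mTEClo double mutants, where it was not called. Slc39a6 (36.1 against 67.4 CPM), Slc39a9 (71.1 against 113 CPM), Slc39a8 (7.18 against 17.8 CPM) and Slc39a13 (17.9 against 27.6 CPM) were lower in control mTEChi, and all 4 were lower in double-mutant mTEChi too. Slc39a5, at 4.46 against 1.13 CPM in controls, was higher in both genotypes. Slc39a10 was called higher in controls (34.2 against 21.4 CPM, adjusted p = 0.0365) and Slc39a1 in double mutants (207 against 111 CPM, adjusted p = 0.00206). Among exporters, Slc30a2 was higher in mTEChi in both genotypes (0.78 ± 0.14 SE in controls and 1.95 ± 0.14 SE in double mutants). Slc30a3, which fills synaptic vesicles with zinc in neurons, averaged 8.56 ± 6.08 CPM in control mTEChi and 0.308 ± 0.617 CPM in control mTEClo, where 3 of 4 libraries had no read (adjusted p = 0.00230). Slc30a4 was lower (10.1 against 20.3 CPM) and Slc30a6 higher (44.0 against 34.0 CPM) in control mTEChi, and Slc30a9 and Slc30a5 were lower in double-mutant mTEChi (25.9 against 53.3 CPM and 15.7 against 26.1 CPM).

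Some of these calls between subsets depended on single libraries. In controls Slc39a5 (5 of 15 alternatives), Slc39a10 (5), Slc25a37 (8), Slc30a6 (9) and Slc30a4 (3) lost their calls, with the highest adjusted p at 0.178 (Slc25a37). Without mTEClo replicate 1 alone, Slc39a5, Slc25a37, Slc30a6 and Slc30a4 were among them. In double mutants Slc39a13 lost its call in 10 of 15 alternatives (adjusted p up to 0.104), Slc30a5 in 4 (up to 0.161) and Slc30a3 in 6 of 14 (up to 0.131), and Slc25a37 lost it with no low-count filter (0.0631).

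Of the iron genes, Tfrc had 58.0, 63.1, 43.9 and 44.7 CPM in control mTEChi, against 25.8, 25.8, 26.4 and 31.4 CPM in control mTEClo. Slc11a2 had 28.5, 22.2, 11.1 and 19.1 CPM in control mTEChi, against 54.7, 57.7, 43.9 and 37.0 CPM in control mTEClo. The subsets did not overlap for either gene, in opposite directions (Tfrc 0.97 ± 0.16 SE, adjusted p = 9.09e-05; Slc11a2 -1.23 ± 0.24 SE, adjusted p = 0.000565), and both calls held in double mutants. Slc11a1 averaged 19.2 ± 8.71 CPM in control mTEChi and 2.34 ± 1.32 CPM in control mTEClo (adjusted p = 0.000788). Cybrd1 averaged 26.7 against 10.6 CPM, Ftl1 897 against 716 CPM and Slc25a37 48.6 against 38.9 CPM, and all 3 were higher in mTEChi in both genotypes. Ferroportin was lower in double-mutant mTEChi (12.3 ± 8.20 CPM) than in double-mutant mTEClo (62.2 ± 3.24 CPM; -2.29 ± 0.36 SE, adjusted p = 5.38e-05), while in controls it averaged 27.6 CPM in mTEChi and 37.2 CPM in mTEClo (adjusted p = 0.373).

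Of the 48 other zinc and iron genes tested, 17 were higher and 12 lower in control mTEChi. The smallest p were those of the iron-sensing aconitase Aco1 (176 ± 21.6 against 85.1 ± 12.2 CPM), the transferrin relative Meltf (36.2 ± 6.92 against 4.45 ± 2.24 CPM), the heme exporter Flvcr1 (64.2 ± 11.3 against 19.1 ± 5.71 CPM) and Hmox1 (144 ± 10.04 against 52.1 ± 12.7 CPM). In double mutants 16 were higher and 15 lower. Between these subsets the 6 tuft genes summed to 296 to 459 CPM in control mTEChi, against 5454 to 7252 CPM in control mTEClo, and were all lower, and the 14 myeloid genes summed to 2506 to 2913 CPM, against 704 to 1161 CPM, with 11 called higher. The 12 dissociation stress genes summed to 1881 to 2722 CPM in control mTEChi, against 4487 to 5321 CPM in control mTEClo, with 8 called lower. The 8 proliferation genes summed to 484 to 627 CPM in control mTEChi, against 123 to 238 CPM in control mTEClo, with 7 called higher. The 8 mTEC and epithelial genes summed to 22791 to 23474 CPM in control mTEChi, against 4856 to 7579 CPM in control mTEClo. The part of stress, cycling and these cell types in the metal genes was not tested.

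The effect of losing both Hnf4 genes was then compared between the subsets, as double mutant over control in mTEChi minus the same in mTEClo. Slc30a2 was the 1 member called of 37, where 0.0597% of all genes were called (0.0398% higher and 0.0199% lower). The difference of its log2 effects was 1.17 ± 0.20 SE (adjusted p = 0.0365): in mTEChi the means were 91.6 CPM in double mutants and 90.6 CPM in controls, and in mTEClo 24.2 CPM in double mutants and 54.1 CPM in controls. The call was lost in 13 of 22 alternatives, which left out a library or added the replicate number as a block (adjusted p from 0.0516 to 0.0969), and kept in the other 9 (adjusted p from 9.25e-05 to 0.0476). Mt2 (1.35 ± 0.30 SE, adjusted p = 0.0883), Slc40a1 (-1.89 ± 0.50 SE, adjusted p = 0.145) and Mt1 (0.86 ± 0.24 SE, adjusted p = 0.154) were not called, and DESeq2 called all 3. The effect on Slc39a4 was not shown to differ between the subsets (-0.76, adjusted p = 0.367). None of the 48 other zinc and iron genes was called by edgeR, and DESeq2 called 2. An unadjusted p under 0.05 was held by 4 of them and by 2298 of all 20095 genes tested.

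**Figure D5:**
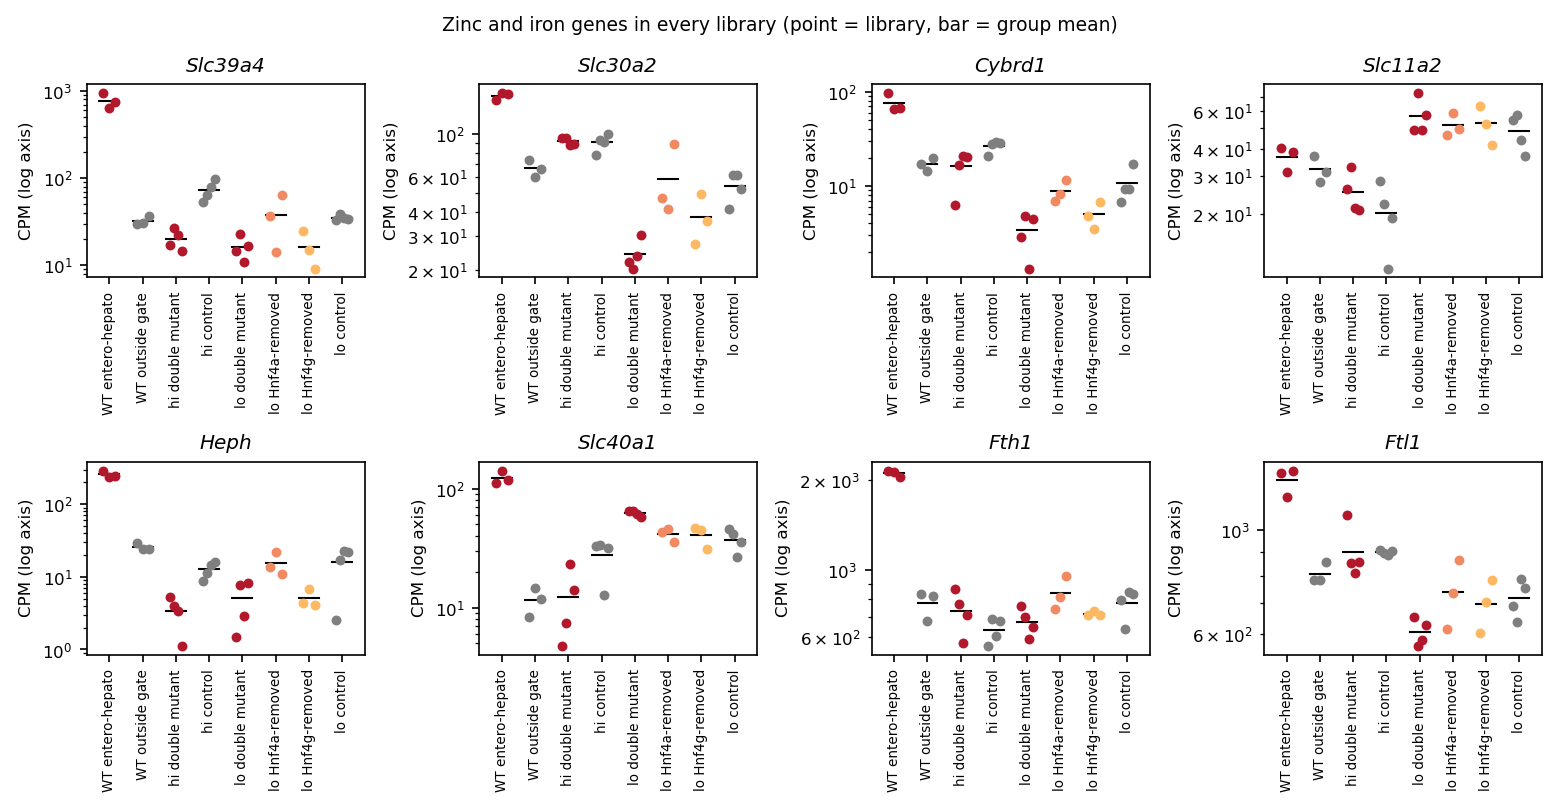
CPM (log y axis, range set per gene) of 8 zinc and iron genes in every library by group (x axis); points are libraries and bars group means. Slc39a4 lies at 630.5 to 942 CPM in the entero-hepato gate and at 14.6 to 26.9 CPM in double-mutant mTEChi, below the 53.7 to 98.2 CPM of control mTEChi; Slc30a2 lies lowest in double-mutant mTEClo, at 20.4 to 30.5 CPM.

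Across the 8 comparisons, edgeR called 29 of the 39 members at least once, 78.4% of the 37 tested, against 69.0% of all genes tested. The 10 it called in none were the importers Slc39a2, Slc39a3, Slc39a7, Slc39a11 and Slc39a12, the exporters Slc30a7, Slc30a8 and Slc30a10, the ferroxidase Cp and the mitochondrial importer Slc25a28. Of these 10, 8 were called in at least 1 of the many alternatives, and DESeq2 called 1, Slc30a10, between the WT gates and in mTEChi. Cp and Slc30a8 were called only with no low-count filter, and Slc39a11 and Slc25a28 only when 1 library was left out. The matching share over all genes was not computed, so this count says nothing particular about the members. Among the 10, Slc30a10 was the one whose groups stood apart in both the WT gates and the mTEChi genotypes.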

How the data were processed

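RNA of 1000 sorted cells per library was amplified with 18 PCR cycles and sequenced in 38-base reads, per the labels' protocols. The authors deposited raw counts per gene symbol for 28 libraries in 8 groups. STAR 2.7.3a, featureCounts and mm10 are named in the submitters' processing notes. The annotation was not given in the sources used here, nor were the settings for assigning reads. The library kit does not mark strand. The labels name no molecular identifiers. The errors and p-values come from the spread between replicate libraries. Every column matched 1 sample (0 left over).

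Counts were tested with edgeR 4.0.16 (quasi-likelihood, TMM; filterByExpr with a minimum count of 10 and total of 15; limma 3.58.1, R 4.3.3) in fits of 6, 14, 8 and 16 libraries, for 8 comparisons. P-values were adjusted over all genes tested (Benjamini-Hochberg), and a gene was called under 0.05. CPM used TMM-scaled totals. The SE was the size of the log2 difference over the square root of its F statistic. Intervals of log2 differences used a normal approximation with that SE, which can be too narrow with so few libraries. The alternatives were DESeq2 1.42.0, its size factors in edgeR (RLE), plain totals, no filter, a replicate block, the compared groups alone, leaving out each library, and, chosen after seeing the data, leaving out the 4 mTEClo libraries numbered 1.

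The 39 members, the gene lists and the tests were chosen with earlier results of these data known. Values in every library, or means where these would repeat, are given for Mt1, Slc39a4 and called members, up to 8 a comparison by smallest p; with under 3 called, the 3 of smallest p are named as not called. Up to 4 called genes of the other zinc and iron list are named a comparison, by smallest p. Other members are named for their known role or for groups that stood apart, some after their values were seen. Same-numbered libraries were not treated as pairs, since the labels do not say that a number is shared between groups. A fit with the number as a block was an alternative. In no comparison did all numbers correlate above 0.1, which cannot decide whether thymi were shared. Replicate pairs (36) differed by more than sampling noise (chi-square per degree of freedom 5.93 to 24.2). Positions are from GENCODE M21 (52936 symbols matched) and promoter windows from RefSeq GRCm38.p6.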

Additional observations from a re-analysis of the deposited data

Results flagged for a closer look

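Of 148 sets of 4 libraries of 1 group checked (1 gene each), 11 had a library far from the others, where chance flags about 1 in 20 of such sets. In control mTEClo, Slc39a6 had 46.5 CPM in replicate 4, against 72.8 to 76.8 CPM in the others, Slc30a1 had 4.55 CPM in replicate 1 (others 7.35 to 7.86 CPM), Slc30a7 had 55.6 CPM in replicate 3 (others 70.5 to 72.6 CPM) and Tfrc had 31.4 CPM in replicate 4 (others 25.8 to 26.4 CPM). In double-mutant mTEClo, replicate 3 held both metallothionein values that stood apart: Mt3 had 4.24 CPM (others 0.678 to 1.04 CPM) and Mt4 had 10.1 CPM (others 0.271 to 0.882 CPM).

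In double-mutant mTEChi, replicate 3 had 18.7 CPM of Slc30a4 (others 8.30 to 9.85 CPM) and 7.35 CPM of Slc30a10 (others 1.08 to 1.98 CPM), and replicate 1 had 1078 CPM of Ftl1 (others 809 to 854 CPM). In control mTEChi, Cybrd1 had 20.7 CPM in replicate 1 (others 28.04 to 29.3 CPM) and Slc40a1 had 12.8 CPM in replicate 3 (others 31.9 to 33.3 CPM).

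The effect of losing both Hnf4 genes on Slc30a2 differed between the sorted subsets, by 1.17 on the log2 scale (mTEChi minus mTEClo, adjusted p = 0.0365). This call was lost in 13 of 22 alternatives, the replicate block among them.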

How the results depend on the processing

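No called member changed direction in its comparison under any alternative run. Of 292 tests of a member in a comparison, 81 changed sign in at least 1 alternative, none of them called by the main settings, and 15 did so with plain totals, 10 of these between the WT gates. The members called after loss of both genes in mTEClo (2) became 5 with no low-count filter and 1 with plain totals. After loss of Hnf4a they became 2 (from 0) with no filter, and after loss of Hnf4g 1 with DESeq2 and 3 with no filter. In mTEChi the 3 called became 6 with DESeq2 and 8 with no filter, and for the difference between subsets the 1 called became 4 with either. Leaving out 1 library gave 12 to 16 called members between the WT gates, 0 to 3 for the double mutant, 0 to 0 for Hnf4a and 0 to 1 for Hnf4g removal in mTEClo, 3 to 4 in mTEChi, 17 to 20 and 18 to 23 between the subsets in controls and double mutants, and 0 to 5 for the difference between subsets. The cause of these changes was not tested.

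The fit with the replicate number as a block called 13 members between the WT gates, 2, 0 and 0 in the mTEClo comparisons, 4 in mTEChi, 20 and 21 between subsets and 0 for the difference between them. The numbers gave correlations of -0.020 to 0.239, the highest for number 1 in Hnf4g removal. In the WT gates all 3 numbers correlated best with themselves, but only at 0.022 to 0.039. Values so close to 0 cannot decide whether thymi were shared.

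Over all genes the calls in double-mutant mTEClo (139) were 456 with DESeq2, 295 with the compared groups alone, 967 with no filter and 342 without the libraries numbered 1. After Hnf4a removal (1) they were 8 with DESeq2, 212 with no filter and 0 with the compared groups alone or without those libraries. After Hnf4g removal (18) they were 143 with DESeq2 and 482 with no filter, in mTEChi (117) 439 and 619, and for the difference between subsets (12) 360 and 321, 5 with the block and 57 without the libraries numbered 1. Leaving out 1 library gave 47 to 207, 9 to 23 and 71 to 188 for the double mutant in mTEClo, Hnf4g removal and mTEChi, and 1 to 157 for the difference between subsets. In double mutants, Slc39a4, Mt1 and Mt2 kept their mTEChi calls in all 13 alternatives. Slc30a8 and Slc39a12 had too few reads to be tested by the main settings, and were called only in alternatives.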
